A study of Mus musculus with 33 samples.

Results

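Sorted costal cells from wild-type mouse embryos at E18.5 (5 libraries) were set against whole tongue from wild-type newborn mice (P0, 3 libraries). The libraries were taken by their labels of genotype, tissue and age, with earlier results of these data known. They make up 8 of the 33 labelled samples of the series, which were deposited as 29 columns of values. The costal cells came from rib cages freed of most skin and soft tissue and digested overnight with trypsin and collagenase II. They were stained for the surface proteins CD24a and CD200 and sorted as live cells, and the labels give the gate positive for both proteins as pre-hypertrophic costal chondrocytes. Each costal library was made from about 2000 cells by SMART-seq2, a method for small inputs that primes on the polyA tail. Each tongue library was made from 300 ng of total RNA of the undissociated organ, after removal of ribosomal RNA, by a strand-specific dUTP method with 10 cycles of PCR. The labels name no allele or agent for either group beyond wild type, call the libraries of a group biological replicates, and do not say whether a library held 1 or several embryos. The series was built around Zac1 (Plagl1), an imprinted gene, and it also holds both tissues from Zac1o knockout mice, in which Zac1 is expressed from both alleles (6 costal replicates and 3 newborn tongues, called biallelic below). Tissue, age, dissociation, sorting, library method and aligner all change together between the groups, so none of the differences below can be assigned to one of them.

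In the growth plate, chondrocytes stop dividing, enlarge and are replaced by bone. Pre-hypertrophic chondrocytes lie at the start of that change and are known for Indian hedgehog and the parathyroid hormone receptor, while hypertrophic cells make type X collagen. Rib cages also carry marrow, blood vessels, muscle and perichondrium. The tongue is mostly striated muscle covered by a stratified, keratinising epithelium, with fibroblasts, vessels and nerve between the fibres.

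The tables shared 23512 uniquely named genes. The costal libraries had 2938462 to 7887305 reads in all, of which 52.22 to 61.61% lay on shared genes, and the tongue libraries had 61615137 to 92249098 reads, of which 31.69 to 33.12% did. A level below is in RPM, the deposited unit, rescaled so that the reads on shared genes are the total. In a costal library 3 reads corresponded to a level of 0.6198 to 1.657, and in a tongue library to 0.0982 to 0.1537, so low levels were less precise in the costal cells, and 0 reads in a library allows a level up to that floor, counting error only. Each gene was also given its percentile among the 13710 tested genes of its library. Genes with 0 reads share 1 percentile, which was 6.5 to 10.1 in the costal libraries (Krt13, for example) and 0.5 to 0.6 in tongue libraries 1 and 2 (Camp), so a gene at or near 0 in both tissues can rank higher in the costal cells. A gene was called when limma's test on the normal scores of those percentiles gave an adjusted p at or under 0.05. Genes called "far apart" had in addition percentiles that did not overlap between the groups and mean log2 levels at least 4-fold apart in the same direction. Over all tested genes the median log2 level was 1.14 lower in the costal cells (-1.14, costal minus tongue), so a relative log2 difference below is the log2 level difference, costal minus tongue, less that median. P-values measure the spread between these libraries and take the costal libraries as equally independent of each other.

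The libraries of the tissues differed in rank over most of the transcriptome. Rank correlations across the 13710 tested genes, which are not independent replicates, were 0.885 to 0.965 between costal libraries, 0.979 to 0.99 between tongue libraries and 0.291 to 0.339 between tissues. The costal libraries were not equally alike. Libraries 10 and 11 correlated at 0.965, and no other costal pair was above 0.927. The p-values take no account of that closer pair. In the costal cells 4992 genes (36.4% of those tested) were called higher and in the tongue 4745 (34.6%). Of these, 1872 (13.7% of those tested) were far apart with the higher level in the costal cells and 3852 (28.1%) with the higher level in the tongue. The remaining 3973 genes were not called, and the percentiles of 9451 genes did not overlap between the groups. The costal share of the calls depended on the scale: it was 51.3% on ranks, 32.5% when levels were tested, 32% with 1 added to each level and 32.6% with voom on the recovered reads. The costal share of the genes far apart was 32.7%, against 44.8% on the deposited scale, 48.4% after median centring, 50.1% after quantile normalization and 49.5% with no filter on low levels. In each list below the share of members called is to be read against these backgrounds. A gene at or near 0 in a tissue passed the filter on low levels through the other tissue, so its direction was largely set in advance.

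**Figure D1:**
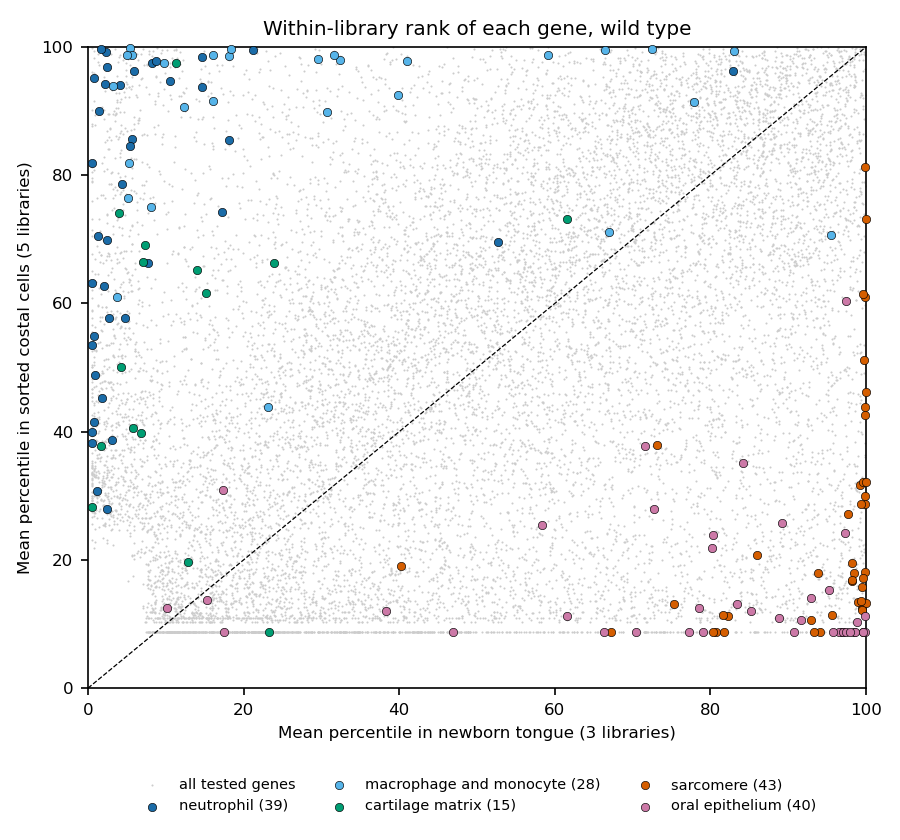
Mean percentile of each of the 13710 tested genes in the 3 newborn tongue libraries (horizontal axis) and the 5 sorted costal libraries (vertical axis), with the dashed line marking equal rank and the number of tested members of each list in brackets. Neutrophil and macrophage genes lie toward the upper left, the 43 sarcomere genes toward the lower right, and the 15 cartilage matrix genes mostly above the line at low tongue percentiles.

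The biallelic libraries, which the wild-type comparison did not use, gave the same contrast again. There 5620 of the same genes (41.0%) were called higher in the costal cells and 5244 (38.2%) higher in the tongue. Of the 4992 wild-type costal calls, 4826 (96.7%) were also costal calls in the biallelic libraries, and of the 4745 wild-type tongue calls 4491 (94.6%) were also tongue calls. Wild-type calls that were called the other way numbered 0. No gene had a tissue difference that differed between genotypes at an adjusted p of 0.05 in limma's interaction test (0 genes). An unadjusted p under 0.05 was found for 382 genes, fewer than the share of 0.05 of the 13710 tested genes that chance alone would give on average.

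Of the genes far apart and higher in the costal cells, the 12 with the largest level difference included chemokines, cytokines and receptors of myeloid cells. Cxcl3 (chromosome 5, 90786103 to 90788086), a chemokine that draws neutrophils, had levels of 2269, 3960, 3254, 5806 and 6963 in costal libraries 7, 8, 9, 10 and 11 and 0 reads in all 3 tongue libraries. Against the floor of 3 reads per library it was at least 34664-fold higher in the costal cells. Cxcl2, a related chemokine encoded nearby on chromosome 5, stood at 1517, 1749, 1916, 1439 and 1103 in the costal libraries and at 0.154, 0.133 and 0.0655 in the tongue (relative log2 difference 14.89, SE 0.32, limma adjusted p = 1.47e-10). The groups did not overlap for either gene. In bulk samples such as these, more cells of a type and more RNA per cell cannot be told apart.

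Il1b, which encodes the cytokine interleukin-1 beta, was steady across the costal libraries, at 2152, 2616, 1677, 2075 and 1938, and was at 0, 0.222 and 0.229 in the tongue (relative log2 difference 15.07, SE 0.47, adjusted p = 3.36e-10). The chemokines Ccl3 and Ccl4, which attract monocytes, were at 809 to 1410 and 351 to 1271 in the costal cells. Ccl4 had 1 read over the 3 tongue libraries, a ratio of pooled levels of 57231 with an exact 95% interval, for counting error only, of 10270 to 2260646. Clec4e, a receptor for mycobacterial glycolipids and for dead cells, was at 873 to 1919 in the costal cells and also had 1 read in the tongue (ratio 86470, exact 95% interval 15518 to 3415540). Fpr1, the receptor for formylated bacterial peptides, was at 155 to 545 and had 2 tongue reads (ratio 11534, interval 3191 to 95260). Osm, which encodes oncostatin M, was at 286 to 769, against 0 to 0.154 in the tongue. Irg1, which makes itaconate in activated macrophages, was at 200 to 678 with 0 tongue reads, at least 3149-fold higher. The other members of these 12 were Mmp8, the neutrophil collagenase (624 to 2016 against 0.102 to 0.4), and the Schlafen genes Slfn1 and Slfn4, which are expressed in leukocytes. Slfn4 shares 20.5% of its exonic sequence words with other genes, so its count is less certain. All 12 were also called higher in the costal cells of the biallelic libraries.

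The promoters of both chemokines are shown because the genes are neighbouring relatives that were high in the costal cells and at or near 0 in the tongue. Within the costal libraries they differed, with Cxcl3 highest and Cxcl2 lowest in libraries 10 and 11. Each runs from 250 bases before to 50 bases after the annotated start, on the plus strand of RefSeq's GRCm38.p6, and capitals mark matches to GGNNTTTCC, the letters shared by many NF-kB sites, and to TATAAA, both searched on both strands.
Cxcl2, chr5:90903649-90903948: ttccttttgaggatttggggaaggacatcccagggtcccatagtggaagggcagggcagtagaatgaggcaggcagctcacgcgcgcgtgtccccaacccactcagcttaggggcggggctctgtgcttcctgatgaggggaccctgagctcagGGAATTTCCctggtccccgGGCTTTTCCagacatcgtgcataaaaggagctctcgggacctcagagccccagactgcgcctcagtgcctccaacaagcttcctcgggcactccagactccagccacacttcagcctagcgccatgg
Cxcl3, chr5:90785851-90786150: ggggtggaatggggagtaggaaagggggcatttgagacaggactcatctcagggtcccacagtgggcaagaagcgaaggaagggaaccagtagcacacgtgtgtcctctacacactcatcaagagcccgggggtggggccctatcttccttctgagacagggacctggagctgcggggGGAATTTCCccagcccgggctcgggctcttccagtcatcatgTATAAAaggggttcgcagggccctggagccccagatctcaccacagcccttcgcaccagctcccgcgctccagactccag

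Cxcl2 held 2 matches to GGNNTTTCC and none to TATAAA, and Cxcl3 held 1 match to each. Il1b, whose promoter lies on the minus strand of chromosome 2 (129371090 to 129371389), held 0 matches to GGNNTTTCC and 1 to TATAAA. Of the 12 genes, 9 had a promoter in the RefSeq table. GGNNTTTCC was found in 2 of these 9 and TATAAA in 6. Over all 27025 genes of that table, windows of the same length held GGNNTTTCC in 6.6% and TATAAA in 15.7%. Among genes called higher in the costal cells 8.7% held GGNNTTTCC, and among those called higher in the tongue 6.6% did. A match describes the letters of the window and no binding was measured.

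Markers of neutrophils and of monocytes and macrophages were higher in the sorted costal cells as whole lists. Of 39 tested neutrophil genes 38 were called higher in the costal cells and 0 in the tongue, with a median relative log2 difference of 8.57 (8.43 with genes at 0 reads in a tissue set to their bound), where all tested genes have a median of 0. Summed over the list, levels were 10587 to 12517 in the costal libraries and 162 to 191 in the tongue. Of 28 tested monocyte and macrophage genes 26 were called higher in the costal cells and 1 in the tongue (median 6.46), with summed levels of 15408 to 23973 against 651 to 810. In the biallelic libraries the counts were 38 and 27 in the costal direction.

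Among the monocyte and macrophage genes, Cd14, the lipopolysaccharide co-receptor, was at 4000, 4463, 2919, 4112 and 3427 in the costal libraries and at 0.922, 1.96 and 0.818 in the tongue (relative log2 difference 12.83, SE 0.28, adjusted p = 6.98e-11). Csf1r, the receptor on which macrophages depend, was at 807, 858, 509, 932 and 970 against 37.2, 37.6 and 33.4, so the tongue held a measurable level and the costal cells a higher one. Cd68, a lysosomal protein of macrophages, was at 494 to 929 against 5.07 to 6.81. Clec4n and Fcgr1, a fungal pattern receptor and the high-affinity IgG receptor, were at 623 to 1539 and 559 to 1953, against levels under 2 in the tongue. C1qa, a complement subunit made by resident macrophages, differed less (relative log2 difference 4.74, SE 0.41, adjusted p = 2.07e-06). Cx3cr1, the fractalkine receptor of many resident macrophages, was the member called in the other direction, at 20.5 to 93.2 in the costal cells and 203 to 277 in the tongue (relative log2 difference -1.55, SE 0.43, adjusted p = 6.35e-05).

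The neutrophil genes did not all behave alike over the costal libraries. S100a9, an abundant cytosolic protein of neutrophils, was at 1154, 629 and 614 in libraries 7, 8 and 9 and at 18.4 and 3.87 in libraries 10 and 11. Ngp, a granule protein made early in neutrophil maturation, was at 491, 226 and 250 in the first 3 of these libraries and at 0.413 and 0 in the other pair. Camp, which encodes the granule peptide cathelicidin, was at 77.5, 16.5 and 22 against 0 and 0. S100a8, the partner of S100a9, fell between, with 898 to 1250 against 173 to 195. Mmp8, by contrast, was at 1852 and 2016 in libraries 10 and 11 and at 624 to 1129 in libraries 7, 8 and 9, and Il1b and Trem1, a receptor that amplifies neutrophil and monocyte responses (101 to 174), were high in all 5. The same split of libraries was seen for ribosomal protein genes, which summed to 24620 to 31406 in libraries 7, 8 and 9 and to 5746 to 9236 in libraries 10 and 11, and for the mast cell, basophil and eosinophil list (674 to 1334 against 79.5 to 137). In libraries 10 and 11 alone the neutrophil list still summed to 10587 and 10590 and the macrophage list to 23973 and 22580, above the tongue sums. The neutrophil sum hid a fall of many members, however. The median percentile of the tested neutrophil genes was 62.3 and 64.4 in libraries 10 and 11, against 89.5 to 91.1 in libraries 7, 8 and 9. Of 41 shared neutrophil genes 37 and 28 had a read there, against 39 to 40. Ngp and Camp in those libraries were within or below the tongue range of 0.0512 to 0.444 and 0 to 0.0655, so their higher costal levels rest on libraries 7, 8 and 9. The costal calls of Ngp and Camp were lost with 1 added to each level (limma adjusted p = 0.0749 and 0.0873), that of Ngp also with ranks over all shared genes (0.0597), and that of S100a9 with voom (0.108).

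**Figure D2:**
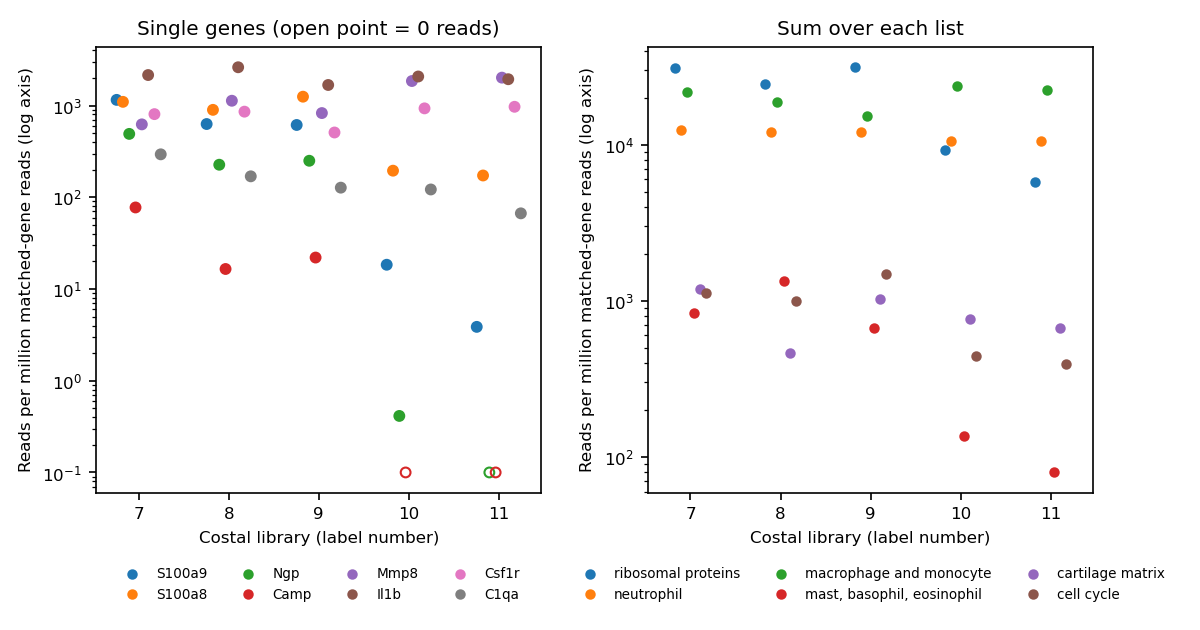
Levels in the 5 sorted costal libraries of 8 myeloid genes (left) and summed levels of 6 gene lists (right), both on log axes, with open points at the bottom for 0 reads. S100a9, Ngp, Camp and the ribosomal protein sum are lower in libraries 10 and 11 than in libraries 7, 8 and 9, while Il1b, Mmp8 and Csf1r are high in all 5.

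Other blood lineages gave smaller or mixed differences. Of 12 tested megakaryocyte and platelet genes 7 were called higher in the costal cells and 2 in the tongue. Ppbp and Pf4, platelet chemokines that monocytes and macrophages can also express, were at 65.1 to 473 and 366 to 738 in the costal cells, against 0.327 to 0.615 and 9.75 to 14.9. Of 8 B lymphocyte genes 5 were costal calls, among them Il7r, the interleukin-7 receptor, at 87 to 305 against 0.512 to 0.622, and Cd79b, a B cell receptor subunit, at only 1.24 to 12.2. Of 14 tested osteoclast genes 9 were called in the costal direction and 2 in the tongue direction, including Acp5, tartrate-resistant acid phosphatase, at 64.3 to 266 against 2.46 to 2.84, and Mmp9, a protease that neutrophils also carry, at 51.1 to 188 against 1.02 to 2.26. The basophil protease Mcpt8 and histidine decarboxylase, Hdc, were higher in the costal cells (relative log2 differences 8.49, SE 1.26, and 4.37, SE 0.73), and both were lower in libraries 10 and 11 than in the other 3. Of 13 tested genes of the mast cell, basophil and eosinophil list 7 were called in the costal direction, and 3 when 1 was added to each level. Without libraries 7, 8 and 9 there were 7 costal and 4 tongue calls in place of 7 and 0, and the list's sum in libraries 10 and 11 (79.5 to 137) was below that of the tongue (193 to 206). Hemoglobin genes share most of their sequence with copies, so Hba-a1 (5.32 to 141 against 2.15 to 4.44) is uncertain, and 5 of 13 erythroid genes were called higher in the tongue against 4 in the costal cells.

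Some of the most abundant messages of the costal cells per kilobase of exon are described next, chosen after their values were seen. Fth1, the ferritin heavy chain, was at a level of 28128 to 47585 in the costal libraries and at 120 to 154 in the tongue. It came first of the tested protein-coding genes per kilobase in the costal cells. Thbs1, the matrix protein thrombospondin-1, was at 17122, 22620, 13757, 31541 and 35692, against 146, 256 and 224. Arg1, arginase-1, was at 5192 to 13836 against 18.8 to 24.5. All of these costal libraries lay above all of the tongue libraries. Hmox1, heme oxygenase-1, which frees iron from heme, was at 4658, 5118, 3538, 10649 and 8590 against 32.2, 25.4 and 31.5 (relative log2 difference 8.80, SE 0.33, adjusted p = 1.66e-09).

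Immediate early and stress genes, which are induced within minutes of stimulation or handling, were mostly higher in the costal cells. Of 33 tested 26 were called in that direction and 3 in the other (median relative log2 difference 4.69). Fos, a subunit of the AP-1 transcription factor, was at 1296 to 2446 against 19.2 to 49.5, and Jun, its partner, at 343 to 868 against 39.4 to 64.9. Atf3 and Ier3, a stress-induced transcription factor and an early response gene, had relative log2 differences of 6.37 (SE 0.33) and 8.87 (SE 0.31). The costal cells were digested overnight and sorted before lysis and the tongues were not, and the part of that handling in these differences cannot be told apart from tissue.

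Genes of glycolysis and the hypoxia response were called higher in the costal cells for 25 of 27 tested members and in the tongue for 2 (median relative log2 difference 4.51). Slc2a1, the glucose transporter GLUT1, was at 2759, 2160, 1918, 2087 and 1786 in the costal cells and at 25.5, 37.7 and 25.6 in the tongue. Ero1l, an endoplasmic reticulum oxidase induced by low oxygen, was at 5070 to 7040 against 34.3 to 37.6 (relative log2 difference 8.59, SE 0.16, adjusted p = 9.46e-11). Ankrd37, a direct hypoxia target, was at 101 to 222 against 0.489 to 1.01. Ldha, lactate dehydrogenase A, was at 4611 to 5598 against 410 to 582, with 34.2% of its sequence shared with other genes. Pfkm, the muscle phosphofructokinase, ran the other way, at 0.506 to 4.55 in the costal cells and 606 to 811 in the tongue (relative log2 difference -7.97, SE 0.69). Folding enzymes and unfolded-protein-response genes of the endoplasmic reticulum were costal calls for 24 of 27 members (median 3.60), such as the chaperone Hspa5 (4374 to 7225 against 146 to 356) and the disulfide isomerase Pdia4 (546 to 770 against 44 to 69.1). Serpinh1, the collagen chaperone HSP47, was 1 of the 3 members called higher in the tongue, at 18.2 to 154 against 231 to 338.

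**Figure D3:**
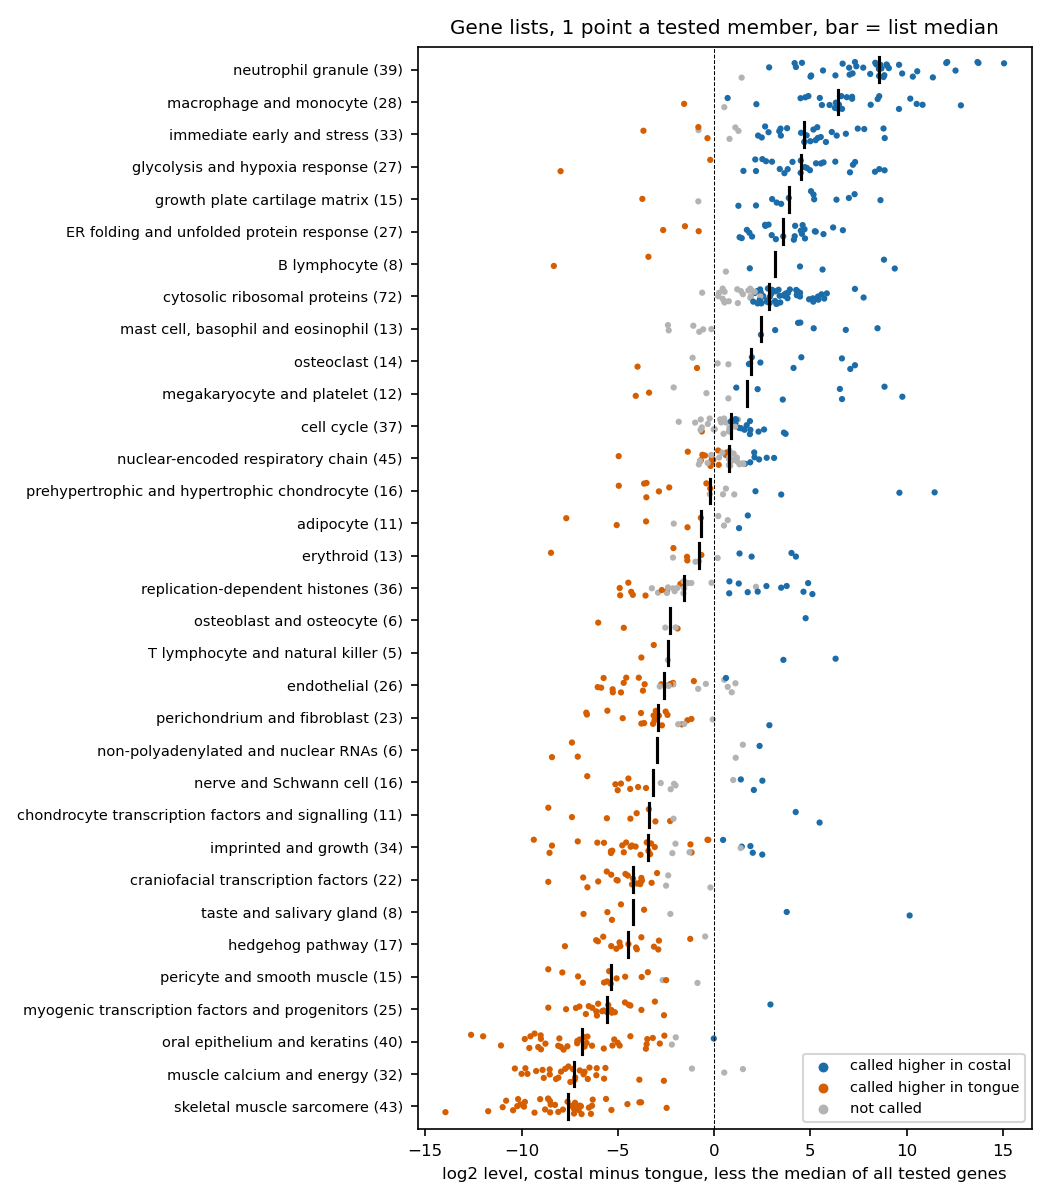
Relative log2 difference (horizontal axis, costal minus tongue, less the median of all tested genes) of each tested member of the gene lists with 5 or more tested members, ordered by median (black bars) and coloured by call, with the number tested in brackets. Neutrophil, macrophage, stress, glycolysis and cartilage matrix lists sit to the right, and sarcomere, muscle energy, oral epithelium, myogenic and pericyte lists to the left.

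The label of the costal cells was checked against cartilage genes. Of 15 tested cartilage matrix genes 13 were called higher in the costal cells and 1 in the tongue (median relative log2 difference 3.88), with summed levels of 464 to 1185 against 76.1 to 89.8. Those sums were below the summed levels of the neutrophil list and of the macrophage list in each of the 5 costal libraries. Col2a1, the main collagen of cartilage, was at 793, 295, 555, 490 and 392 in the costal libraries and at 1.08, 2.53 and 6.68 in the tongue (relative log2 difference 8.65, SE 0.52, adjusted p = 3.86e-08). Acan, the cartilage proteoglycan aggrecan, was at 13.6 to 77.5 against 2.93 to 5.28, and Col9a1, a chain of type IX collagen, at 92.2, 5.95, 77.5, 64.9 and 74.6 against 0.307 to 1.15. Col9a3, another chain of that collagen, was at 21 to 54.4 and the matrix protein Comp at 5.17 to 24. Ucma and Lect1, a secreted protein of the upper growth plate and the antiangiogenic chondromodulin, were at 0 to 5.6 and 0 to 12.7 and had 0 reads in library 8. Vit, an extracellular matrix protein, had 0 costal reads and was at least 8.4-fold higher in the tongue.

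Transcription factors of the chondrocyte lineage were divided. Sox9, which commits cells to cartilage, was at 15.6, 15.5, 31.1, 7.44 and 10.5 in the costal cells and at 1.69, 1.51 and 1.8 in the tongue (relative log2 difference 4.24, SE 0.59, adjusted p = 1.04e-06). Runx3, which acts in chondrocyte maturation and also in leukocytes, was at 38.1 to 98.3 against 2.53 to 3.27. The remaining calls of the list were in the tongue direction, 8 of 11 tested. Sox6, the partner of Sox9 in matrix gene activation, was at 0 to 1.86 in the costal cells and at 357 to 527 in the tongue, and Sox5 at 0 to 15.4 against 77.3 to 99.4. Sox6 is also known to act in skeletal muscle. Zbtb20, a repressor with a role in hypertrophic cartilage, was at 2.98 to 27.1 against 1395 to 1474, and Barx2, which acts in muscle and epithelium, had 0 costal reads against 86.9 to 112.

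Genes of pre-hypertrophic and hypertrophic chondrocytes did not move together: 4 of 16 tested were called higher in the costal cells and 8 in the tongue (median relative log2 difference -0.21). Ihh, the defining ligand of the pre-hypertrophic zone, and Col10a1, of the hypertrophic zone, did not reach the level needed to be tested, at 0 to 0.331 and 0 to 1.17 in the costal cells. Pth1r, the parathyroid hormone receptor, was at 0 to 3.04 in the costal cells and 9.78 to 17.9 in the tongue, a call that was lost when reads were thinned to 1 depth (adjusted p = 0.0516). Spp1, osteopontin, which macrophages and osteoclasts also make, was at 1578 to 3378 against 0.973 to 3.24 (relative log2 difference 11.46, SE 0.37), and Mmp13, collagenase-3, at 126 to 329 against 0.512 to 0.818. Sp7, Dlx5 and Panx3, a transcription factor of bone formation, a homeobox factor and a channel of hypertrophic cartilage, had 0 reads in all costal libraries. Cartilage matrix genes and Sox9 were thus present in the costal libraries, while the defining markers of the labelled pre-hypertrophic stage were at or near 0, and the libraries are called sorted costal cells here. The part of the myeloid genes in the cartilage levels was not tested.

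The genes of the sorting antibodies gave little separation from tongue. Cd24a was at 92.9, 64.5, 50.1, 71.3 and 75.7 in the costal cells and at 109, 88.5 and 104 in the tongue, with mean percentiles of 81.1 and 83.6, and was not called (limma adjusted p = 0.473), although it was called higher in the costal cells in the biallelic libraries and higher in the tongue with voom on the wild-type libraries (-0.5244, adjusted p = 0.0394). Cd200 was at 22.4, 22.5, 10.1, 31 and 22.6 against 14.4, 6.62 and 10.9, and was called higher in rank (relative log2 difference 2.15, SE 0.46, adjusted p = 0.00148), though not when levels were tested (adjusted p = 0.0698). For both genes the level in at least 1 costal library lay within the range of the tongue libraries, while the percentiles of Cd200 did not overlap. CD24a is also carried by neutrophils and immature B cells, and CD200 by endothelial cells, neurons and some lymphocytes.

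**Figure D4:**
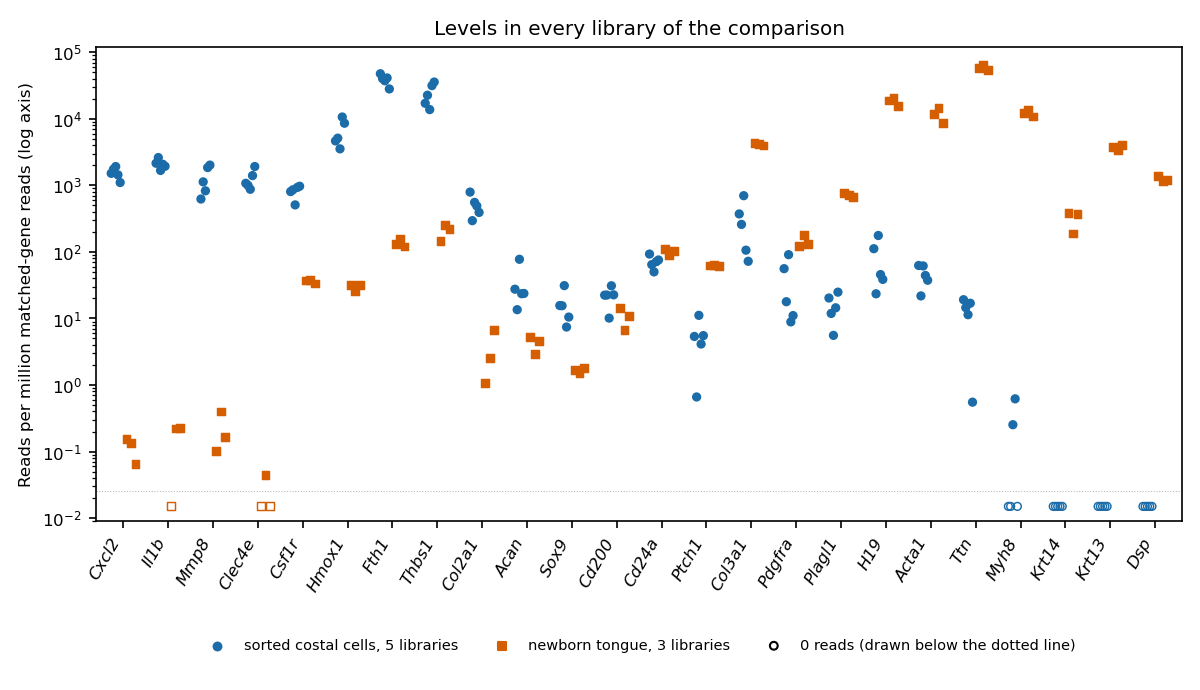
Levels, in RPM over shared genes on a log axis, of 24 genes in each of the 5 costal libraries (blue circles) and 3 tongue libraries (orange squares), with open symbols below the dotted line for 0 reads. Myeloid, iron and cartilage genes on the left are higher in the costal cells, Cd24a and Cd200 lie close together in the tissues, and muscle and epithelial genes on the right are higher in the tongue.

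RNA of receptors and effectors of the hedgehog pathway, which Ihh feeds in the growth plate and Sonic hedgehog in the tongue, was higher in the tongue. Signalling itself was not measured. Of 17 tested genes 16 were called higher in the tongue and 0 in the costal cells (median relative log2 difference -4.45, or -4.05 with genes at 0 reads set to their bound). Ptch1, the receptor and a direct target of the pathway, was at 5.37, 0.661, 11.1, 4.13 and 5.52 in the costal cells and at 62.4, 63.6 and 62.2 in the tongue. Gli1, another direct target, was at 0.76 to 1.65 against 17.6 to 19.1, and Gli2, a transcriptional effector, at 0 to 1.32 against 129 to 211. In wild-type tongue at other ages Ptch1 had a mean of 221 at E13.5 and 51.5 at P20.

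Sarcomere genes were higher in the tongue as a whole list. All 43 tested members were called higher in the tongue and 0 in the costal cells, with a median relative log2 difference of -7.61 (-7.28 with genes at 0 costal reads set to their bound). Ttn, the giant spring protein of the sarcomere, stood at 58619, 64858 and 54059 in the tongue, and was at 19.1, 14.5, 11.4, 16.9 and 0.552 in the costal libraries (relative log2 difference -11.74, SE 0.99, adjusted p = 2.91e-08). Acta1, skeletal actin, was at 11710, 14477 and 8634 in the tongue and at 21.8 to 62.5 in the costal cells. It led the tested protein-coding genes of the tongue per kilobase of exon. The developmental myosins Myh8 and Myh3, of perinatal and embryonic fibres, were at 10838 to 13411 and 803 to 1182 in the tongue and had 4 and 7 reads over all costal libraries. Myh8 shares 32.5% of its sequence words with other genes. At E13.5 the tongue mean of Myh8 was 128 and at P20 64.7, so the newborn tongue was the age with the highest level of the 3, and Myh3 was at 861 and 22.6 at those ages. Neb and Mybpc1, a thin filament ruler and a slow myosin-binding protein, were at 7304 to 9173 and 2359 to 3273 in the tongue, against 0.76 to 9.8 and 0 to 2.89. Myom2, an M-band protein, had 0 costal reads and was at least 1113-fold higher in the tongue.

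The promoter of Acta1 is shown as that of the most abundant protein-coding tongue message per kilobase of exon. It lies on the minus strand of RefSeq's GRCm38.p6. Capitals mark TATAAA and CAGCTG, an E-box of the kind that myogenic factors bind, both searched on both strands.
Acta1, chr8:123894726-123895025: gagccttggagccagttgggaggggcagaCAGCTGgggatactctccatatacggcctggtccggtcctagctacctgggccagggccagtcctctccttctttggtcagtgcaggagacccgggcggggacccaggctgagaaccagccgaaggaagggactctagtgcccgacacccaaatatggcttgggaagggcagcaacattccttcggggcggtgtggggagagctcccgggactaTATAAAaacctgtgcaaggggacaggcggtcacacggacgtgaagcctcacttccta

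This E-box was held by 13 of 36 sarcomere genes with a promoter in the table (36.1%), by 10 of 22 monocyte and macrophage genes (45.5%), by 21.7% of the genes called higher in the tongue and by 18.3% of all genes.

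Calcium-handling and energy genes of muscle followed the sarcomere: 29 of 32 were called higher in the tongue and 0 in the costal cells (median relative log2 difference -7.28). Atp2a1, the calcium pump of fast fibres, was at 3276, 4152 and 2407 in the tongue and at 0 to 6.08 in the costal cells. Ckm, muscle creatine kinase, was at 3446 to 5209 against 0 to 13.8, Ryr1, the calcium release channel, at 782 to 1295 against 0 in 4 costal libraries and 8.86 in library 9, and Casq1, calsequestrin, at 705 to 987 against 0 to 0.467. Of 25 myogenic transcription factors and progenitor genes 24 were called higher in the tongue. Myog, the differentiation factor myogenin, was at 94 to 102 against 0 to 3.27, Pax7, of satellite cells, at 24.4 to 37 with 0 costal reads, and Pax3 at 77.5 to 112 with 2 costal reads. Met, the receptor for hepatocyte growth factor, was the member called in the costal direction, at 95.5 to 384 against 48.9 to 67.8, and it is also expressed by neutrophils and other cells.

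Epithelial genes of the tongue were at or near 0 in the costal cells. Of 40 tested 37 were called higher in the tongue and 1 in the costal cells (median relative log2 difference -6.85, or -6.42 with bounds), and 18 of the 42 shared genes of the list had 0 reads in all 5 costal libraries. Krt13 and Krt4, the keratin pair of the suprabasal oral epithelium, were at 3338 to 4019 and 2729 to 3384 in the tongue. Krt13 had 0 costal reads (at least 3922-fold higher in the tongue) and Krt4 had 3 (ratio of pooled levels 18492, exact 95% interval 6327 to 89669). Krt13 rose over the tongue's ages, from a mean of 1.64 at E13.5 to 9314 at P20, values given without a test. The basal keratins Krt5 and Krt14 were at 237 to 335 and 189 to 384 with 0 costal reads, at least 320-fold and 332-fold higher, and Krt14 shares 29.2% of its sequence words. Krt76, a keratin of masticatory mucosa, Dsp and Pkp1, desmosome proteins, and Rptn, repetin of the cornified envelope, also had 0 costal reads and were at least 464-fold, 1336-fold, 480-fold and 1175-fold higher in the tongue.

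Connective tissue genes were higher in the tongue with a smaller difference. Of 23 tested perichondrium and fibroblast genes 19 were called higher in the tongue and 1 in the costal cells (median relative log2 difference -2.93). Col3a1, type III collagen, was at 372, 259, 700, 106 and 72.4 in the costal cells and at 4300, 4178 and 3965 in the tongue (relative log2 difference -3.09, SE 0.62, adjusted p = 8.3e-05). Col1a1, of bone and fibrous tissue, was at 73.5 to 461 against 1011 to 1396, Pdgfra, of fibroblasts, at 8.88 to 90.9 against 122 to 177, and Fap and Aspn at 0 to 2.1 and 0 to 15.4 against 148 to 172 and 255 to 299. Dcn, the proteoglycan decorin, was at 300, 78, 959, 42.6 and 34.8 against 326, 301 and 259 and was not called (adjusted p = 0.173), but it was called higher in the tongue without costal library 9 (0.00943). Vim, vimentin, of mesenchymal and blood cells, was the member called in the costal direction, at 1840 to 2990 against 624 to 751. Thy1 had reads in costal library 9 alone (2.28) and was at 12.5 to 13.1 in the tongue. The fibroblast list summed to 3541 to 5231 in costal libraries 7, 8 and 9 and to 2251 to 2488 in libraries 10 and 11.

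Pericyte and endothelial genes were more often called higher in the tongue, and neural genes were divided. Of 15 pericyte and smooth muscle genes 13 were tongue calls and 0 costal calls (median relative log2 difference -5.37), including Rgs5 (71.7 to 115 against 0 to 0.826) and smooth muscle actin, Acta2 (255 to 455 against 0 to 12). Of 26 endothelial genes 15 were tongue calls and 1 a costal call, with Cdh5, VE-cadherin, at 91.8 to 129 against 1.27 to 7.73 and the receptor Tie1 at 45.8 to 49.6 against 0 in 4 libraries and 1.45 in library 10. Without costal libraries 7, 8 and 9 the endothelial list had 5 costal and 14 tongue calls. Of 16 nerve and Schwann cell genes 8 were tongue calls, 3 costal calls and 5 not called, and the tongue calls ranged from 6 to 12 over the scales and filters tried. Sox10, a Schwann cell transcription factor, had 0 costal reads and was at least 13.7-fold higher in the tongue. In the adipocyte list 5 of 11 were tongue calls, with the lipid droplet protein Plin4 at 126 to 195 against 0 to 0.992, and 2 were costal calls.

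Shared genes of position along the body were mostly at or near 0 in the costal cells. Of 39 Hox genes listed, 28 were shared between the tissues. Those not shared, among them Hoxa5, Hoxb7, Hoxc6, Hoxc8 and Hoxc9, were not compared. Of the 28, 21 had 0 reads in all costal libraries and 10 in all tongue libraries. A costal library had reads on 1 to 3 of the 28, and on 12298 to 13894 of all 23512 shared genes. The 2 abundant enough to be tested were Hoxd3 and Hoxd8. Both were called higher in the tongue, Hoxd8 with 0 costal reads and 5.07 to 5.53 in the tongue, and Hoxd3, which shares 86.9% of its sequence words, with 2 costal reads. Of 22 tested transcription factors of the face and branchial arches 19 were called higher in the tongue and 0 in the costal cells (median relative log2 difference -4.24, or -2.92 with genes at 0 reads set to their bound). Of the 33 shared genes of this list 23 had 0 reads in all costal libraries. Hox and face genes near 0 in the costal cells passed the level filter through the 3 tongue libraries. These counts are therefore no separate support for a direction. Tbx15 was at 298, 307 and 307 in the tongue and at 0 to 0.62 in the costal cells. Tbx1, Hand2 and Barx1, factors of pharyngeal and jaw development, had 0 costal reads and were at least 69.5-fold, 14-fold and 8.33-fold higher. Hand2 and Barx1 had higher means in the tongue at E13.5 (75.3 and 59.9) than in the newborn (13.2 and 7.88).

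Plagl1, the gene the series is about, was at 20.3, 11.9, 5.57, 14.5 and 24.9 in the costal libraries and at 766, 723 and 667 in the tongue, with no overlap. The log2 level difference was -5.71 (relative -4.57, SE 0.42, limma adjusted p = 3.19e-07), and an exact two-sided permutation test over the 8 libraries gave p = 0.03571, the smallest that its 56 arrangements allow. Wild-type tongue had a mean of 342 at E13.5 and 71.8 at P20, both above every costal library. In the biallelic libraries its mean was 46.6 (SD 19.1, n = 6) in the costal cells and 1450 (SD 113, n = 3) in the tongue. Its paralogue Plagl2, which is not imprinted, was called in the other direction, at 70.1 to 108 in the costal cells against 27 to 35.8 (relative log2 difference 2.51, SE 0.22, adjusted p = 6.36e-06).

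The list of imprinted and growth genes was mostly lower in the costal cells. Of 34 tested 25, Plagl1 among them, were called higher in the tongue and 5, Plagl2 among them, in the costal cells (median relative log2 difference -3.45). H19, a maternally expressed noncoding RNA, was at 18807, 20316 and 15559 in the tongue and at 112, 23.5, 176, 45.7 and 38.7 in the costal cells. Igf2, the growth factor at the same locus, was at 3913 to 4693 against 44.7 to 218, although 76% of its sequence words are shared with other gene models. Meg3 and Dlk1, neighbours on chromosome 12, were at 3797 to 4714 and 636 to 773 against 0 to 20 and 14.2 to 123. Grb10, an adaptor that restrains growth, was at 1436 to 1658 against 2.31 to 29.2, and Airn, a nuclear noncoding RNA, at 684 to 921 against 0.552 to 5.06. In the costal cells Plagl1, Igf2, H19 and Dlk1 each ranged over more than 4-fold between libraries. Dlk1, H19 and Igf2 were highest in libraries 7 and 9, where Col3a1 and Dcn were also highest, and the part of fibroblast-type RNA in these levels was not tested.

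Housekeeping groups depended on the scale or on the costal libraries used. Of 72 ribosomal protein genes 50 were called higher in the costal cells and 0 in the tongue (median relative log2 difference 2.84), but without libraries 7, 8 and 9 the counts were 43 and 10. Rplp0, a stalk protein, was at 935 to 2940 against 295 to 327, and Rpl3 at 218 to 879 against 51.2 to 67.1. More than 20% of the sequence words were shared with other genes for 56 of the 72, and of the other 16 the costal calls were 7. Of 45 respiratory chain genes 7 were called in the costal direction and 16 in the tongue direction, against 18 and 4 after median centring, so no direction can be given. Atp5a1, an ATP synthase subunit, was at 270 to 375 against 1058 to 1246, and cytochrome c, Cycs, at 93.3 to 168 against 25.2 to 33.9. Of 37 cell cycle genes 16 were called higher in the costal cells and 1 in the tongue, against 3 costal calls when levels were tested. Without libraries 7, 8 and 9 the counts were 15 and 6. The list summed to 991 to 1488 in libraries 7, 8 and 9, to 395 to 446 in libraries 10 and 11 and to 772 to 963 in the tongue, so no direction can be given. Pcna, the replication clamp, was at 80 to 109 against 13.2 to 20.8. Of 36 replication-dependent histone genes, whose messages lack a polyA tail, 11 were costal calls and 10 tongue calls, and 5 and 23 when levels were tested.

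Differences between the tissues were also ordered by the length of the gene. Genes were split by their span on the genome into 5 groups of 2742, and the median relative log2 difference fell from 1.37 in the group of shortest span (up to 7786 bases) through 0.93, 0.46 and -0.30 to -2.49 in the longest (74997 bases or more). In the shortest group 58.1% of genes were called higher in the costal cells and 17.5% in the tongue, and in the longest group 8.35% and 72%. By exonic length the medians ran from 1.27 to -1.12. The 97 processed pseudogenes had a median of 5.87, and the 427 genes sharing more than 50% of their sequence words with other genes a median of 2.42. The direction of some lists differed among genes of the 2 shortest groups, with spans up to 17441 bases, whose overall median was 1.13. There the chondrocyte transcription factor list had 2 members with a median of 0.60, with 1 costal and 1 tongue call, against -3.39 for all its members, and the pre-hypertrophic and hypertrophic list 5 members with a median of 1.05, against -0.21. The lists of nuclear RNAs (3 members, 1.13 against -2.98) and T and natural killer cells (2 members, 1.27 against -2.40) also changed sign. So did those of erythroid cells (8 members, 0.76 against -0.77) and adipocytes (5 members, 0.22 against -0.68). The short-span medians of the lists that changed sign were close to or below the 1.13 of all genes with such spans. The changes of sign are therefore not read as results about those lists. Among lists that kept their sign, the 17 sarcomere genes had a median of -7.04 with 17 tongue calls, the 30 epithelial genes -6.73, the 30 neutrophil genes 8.67 with 29 costal calls, the 18 macrophage genes 6.63 and the 5 cartilage matrix genes 3.49 with 5 costal calls. Library chemistry, RNA fraction and aligner differ between the tables together with tissue, and the part of each in the trend with length was not tested.

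**Figure D5:**
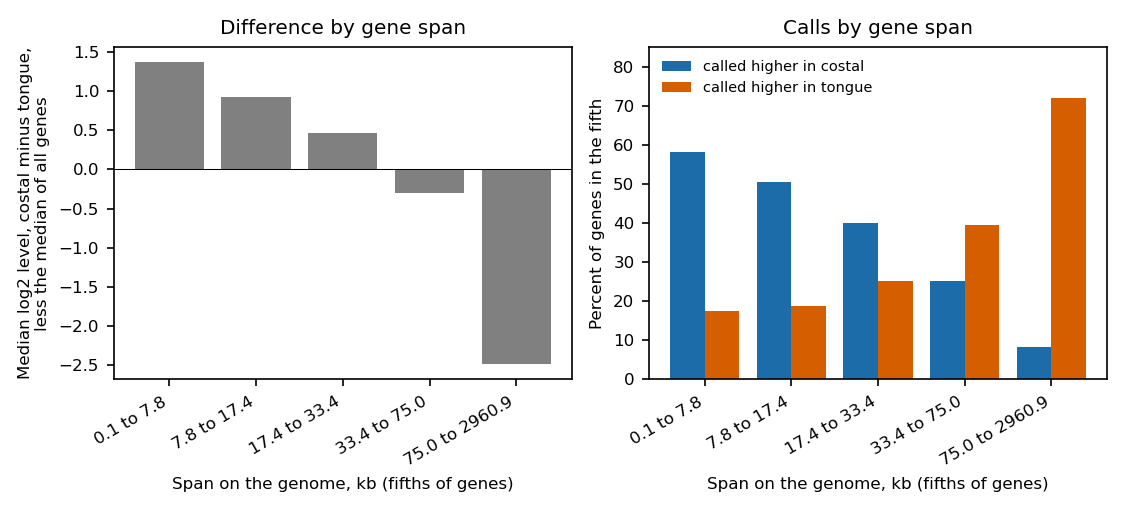
Median relative log2 difference (left) and percent of genes called in each direction (right) in 5 groups of 2742 tested genes by span on the genome, with span in kilobases on the horizontal axes. The median falls from 1.37 in the shortest group to -2.49 in the longest, and the share called higher in the tongue rises from 17.5 to 72%.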

How the data were processed

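Values were deposited by the authors as log2 RPM per gene, in 1 table for the costal cells and another for the tongue, per the file headers. Per the submitters' processing notes and the labels, reads were trimmed with Trim Galore 0.4.2 and aligned to GRCm38, with TopHat2 2.1.0 for tongue and HISAT2 for costal cells. No label or header names the read counter or its use of strand, so overlapping and antisense genes may share reads. The lowest value of each library corresponded to 0.9 reads and was set to 0 reads. All other values below 1000 reads came out whole within 0.05 reads. Printed levels give such genes as 0. For percentiles, log2 differences, their SEs and the 4-fold limit of genes far apart they were put back at 0.9 reads. A log2 difference with 0 reads in some libraries therefore depends on that floor and on the depth of those libraries. Genes were matched by unique name, levels were scaled to reads on matched genes, and the 13710 genes with a level of at least 2 in 3 or more of the 8 libraries were tested. Genes of chromosomes X, Y and MT were not matched between the tables and were not compared.

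Percentiles within each library were turned into normal scores and compared with limma 3.58.1 (R 4.3.3, mean trend, Benjamini-Hochberg adjustment at 0.05), with the biallelic libraries fitted the same way; tables normalized separately were thus compared by rank first. Level differences with standard errors stand beside the calls. Bounds use 3 reads per library. Spans were taken from the gene starts and ends deposited with the costal values, and exons from GENCODE vM21 on GRCm38. The sequence words whose sharing between genes was measured were 31 bases long. The procedure was also run on simulated reads drawn from the tongue means, with only a small part of the genes changed. In the data most tested genes were called, so that run is no support for the calls here. Named genes were up to 12 per direction with the largest level difference among those far apart at a mean level of 50 or more, the first members and the largest calls of each list, Plagl1, Cd24a, Cd200 and the Hox genes; Fth1, Thbs1 and Arg1 were added after their values were seen. The members of the comparison and all gene lists were chosen with earlier results of these data known. Alternatives changed the filter, the genes ranked, the scale tested, the depth, the trend and the libraries used. Python 3.11.15 with pandas 2.3.3 and NumPy 2.4.6 handled the tables.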

Additional observations from a re-analysis of the deposited data

Results flagged for a closer look

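In the 5 wild-type costal libraries, the values of the genes named and the summed level of each list were examined for a single library far from the others. The gap test used calls about 1 group in 20 by chance, and it picked out 3 of 92 genes and 3 of 34 list sums. Ttn was low in costal library 11, at 0.552 against 11.4 to 19.1 in the other costal libraries, all far below the tongue. Col9a1, a cartilage collagen, was low in library 8, at 5.95 against 64.9 to 92.2, and the cartilage matrix sum was also lowest there. Csf1r was low in library 9, at 509 against 807 to 970. The osteoblast and osteocyte list summed to 871 in library 9 and to 389 to 489 in the others. The erythroid list summed to 1131 in library 8 and to 175 to 247 elsewhere, and the adipocyte list to 456 in library 7 and to 328 to 340 elsewhere. The causes were not tested.

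Genes of chromosomes X and MT stood in the costal table and were used in no comparison. They took up to 2.97% and up to 1.12% of the listed reads of a costal library. Cybb, the X-linked subunit of the phagocyte oxidase, had levels of 408 to 1369 in the costal libraries with a median of 594.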

How the results depend on the processing

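No paired analysis was possible because the costal libraries are numbered 7 to 11 and the tongue libraries 1 to 3, and they share no number. Costal calls numbered 4992, against 3165 when log2 levels were tested and 3147 with 1 added to each level. Genes far apart and higher in the costal cells numbered 1872, against 4295 with no filter on low levels, 3182 after quantile normalization and 3010 after median centring. In the biallelic libraries the costal calls were 3408, 3436 and 3500, and the tongue calls 7927, 8037 and 8299, when levels, levels plus 1 and voom values were tested. Cd24a, which was not called, changed direction to 0.3057 on the deposited log2 RPM scale and 0.5278 after median centring, and was called in the tongue direction with voom. The log2 difference of Plagl1 lay between -5.925 and -5.385 when single libraries were left out. The exact permutation p was then 0.05714 without a costal library and 0.09524 without a tongue library, the smallest those designs allow. For 141 genes of the rule and lists, 2895 of 2947 values under the alternatives kept their direction and their side of the threshold. A call was lost under at least 1 alternative for 12 genes, Aldoa, Alpl, Camp, Cd200, Ctsk, Hbb-b1, Kdr, Mki67, Myod1, Ngp, Pth1r and S100a9, and 4 uncalled genes, Cd24a, Cpa3, Dcn and Rps3, were called under at least 1. Leaving out 1 library was enough for Aldoa, Ctsk, Kdr, Myod1, Dcn and Rps3. Of 1428 counts of list members called, 1289 were within 1.5 times the count reported. Depth limits the costal cells most, where 3 reads correspond to a level of up to 1.657.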
